A study of Mus musculus with 4 samples.

Results

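The transcripts described here encode the nuclear subunits and assembly factors of the mitochondrial respiratory chain and of ATP synthase. The rule that picked them uses gene names and no value, but it was set with earlier results of these data known. It takes names beginning with Nduf, Sdh, Uqcr, Uqcc, Cox followed by a digit, or Atp5. Cyc1, Cycs, Surf1, Sco1, Sco2, Bcs1l and the electron transfer flavoprotein genes are also taken. Among the 9114 genes with deposited values, 51 matched, and all 51 passed the minimum mean of 10 normalised counts that 9063 genes passed. GENCODE vM21 lists 118 protein-coding gene names that match. The table held 12 of 36 complex I subunits, 4 of 8 complex I assembly factors, 3 of 8 complex II genes, 5 of 9 complex III subunits, 10 of 20 complex IV subunits, 7 of 12 complex IV assembly factors, 9 of 17 ATP synthase genes and 1 of 3 electron transfer flavoprotein genes, Etfdh. The others, among them Cycs and the complex III assembly factors, were not analysed here.

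The respiratory chain passes electrons from NADH and succinate through complexes I to IV to oxygen and pumps protons across the inner mitochondrial membrane, and ATP synthase, complex V, uses the proton gradient to make ATP. Each complex but II joins subunits encoded in the nucleus with a few encoded in the mitochondrial genome, and dedicated assembly factors insert haem, copper, iron-sulphur clusters and subunits. Endothelial cells are known to draw much of their ATP from glycolysis and to use respiration also for redox balance and biosynthesis. Lymphatic endothelium is known for its use of fatty acid oxidation, whose electrons enter the chain in part through Etfdh.

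The RNA came from meningeal lymphatic endothelial cells of C57BL/6J males aged 20 to 24 months, gated by flow cytometry as viable singlets that carried CD31 and podoplanin and lacked CD45. Each mouse had received 5 µL of an AAV1 vector into the cisterna magna 4 weeks earlier, carrying mouse VEGF-C (the mVEGF-C group) or the fluorescent protein eGFP (the control group) under the CMV promoter, which is active in many cell types and not limited to lymphatic cells. There were 2 libraries per group, each from the pooled meninges of 10 mice, so no library stands for a single animal. The comparison asks how the cells of mice given VEGF-C differ from those of mice given the control vector.

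The values are normalised read counts, and library totals recovered from them lay between 25610683 and 28632461 reads. The 8 lymphatic endothelial markers fixed for this check (Prox1, Flt4, Lyve1, Pdpn, Nrp2, Ccl21a, Mmrn1 and Reln) all had a row and together took 1.87% to 2.10% of the counts of every library. Of 8 meningeal fibroblast markers 7 had a row, with summed levels of 0.258% and 0.110% in eGFP 1 and 2 and 0.252% and 0.156% in mVEGF-C 1 and 2. All 6 pan-endothelial markers had a row. Their summed levels were 0.295% and 0.298% in eGFP 1 and 2 and 0.340% and 0.352% in mVEGF-C 1 and 2, higher in both mVEGF-C libraries. Of 7 macrophage markers Mrc1 alone had a row. It took 0.112% and 0.120% in eGFP 1 and 2 and 0.0998% and 0.0876% in mVEGF-C 1 and 2, lower in both mVEGF-C libraries. Rows were also found for markers of mural cells (2 of 6, at 0.0302% to 0.0645%), lymphocytes (2 of 6), red cells (2 of 5) and neural cells (3 of 6). The last 3 lists were each below 0.01%. The fibroblast range of each group covers part of the other, and the part of other cells in the results below was not tested. In bulk libraries, less RNA per cell and fewer cells of a type cannot be told apart.

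Rows of the table appear to have been limited by replicate agreement, a step that no source used here describes. Over all rows, the SD of log2(reads + 1) reached at most 1.9996 in the eGFP pair and 2.9993 in the mVEGF-C pair. If genes that differed more were dropped, spread is understated and p-values are too small by an unknown amount. In addition, 82 genes were at 0 in 1 library and none in more. A gene at 0 in both libraries of a group thus has no row. No label says that the pools of a group were handled on separate occasions, so the p-values measure only the spread between these libraries. In the limma fit that spread came from the trend of the variance on expression over all genes tested. It was not each gene's own replicate spread. GENCODE vM21 also names 13 pseudogenes after genes of these families, and how reads shared with such copies were assigned is unknown.

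Of the 51 genes, 3 fell in mVEGF-C libraries and none rose. All 3 encode subunits of complex IV, cytochrome c oxidase: Cox5b, Cox6b1 and Ndufa4. The share of lower calls over all genes tested was 1.31% and of higher calls 0.828% (limma, Benjamini-Hochberg adjusted p under 0.05). The remaining 48 genes had adjusted p-values of 0.186 or more. Of the 51 fold changes 30 were above 0 and 21 below, with a median of 0.21 on the log2 scale beside -0.02 over all genes tested. With single libraries left out, the median of the 51 was 0.058 without eGFP 1, -0.024 without eGFP 2, 0.015 without mVEGF-C 1 and 0.077 without mVEGF-C 2. At an unadjusted p under 0.05, 3 members were higher and 4 lower, where 5.09% and 6.7% of all genes were. The groups did not overlap for 9 members in the higher and 9 in the lower direction, where 19.4% and 19.8% of all genes did not, so these shares are near the background. Without trend in the variance no member was called, nor was any without eGFP 1 or without eGFP 2. With 2 libraries against 2, an exact two-sided permutation test cannot go below 0.333.

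**Figure D1:**
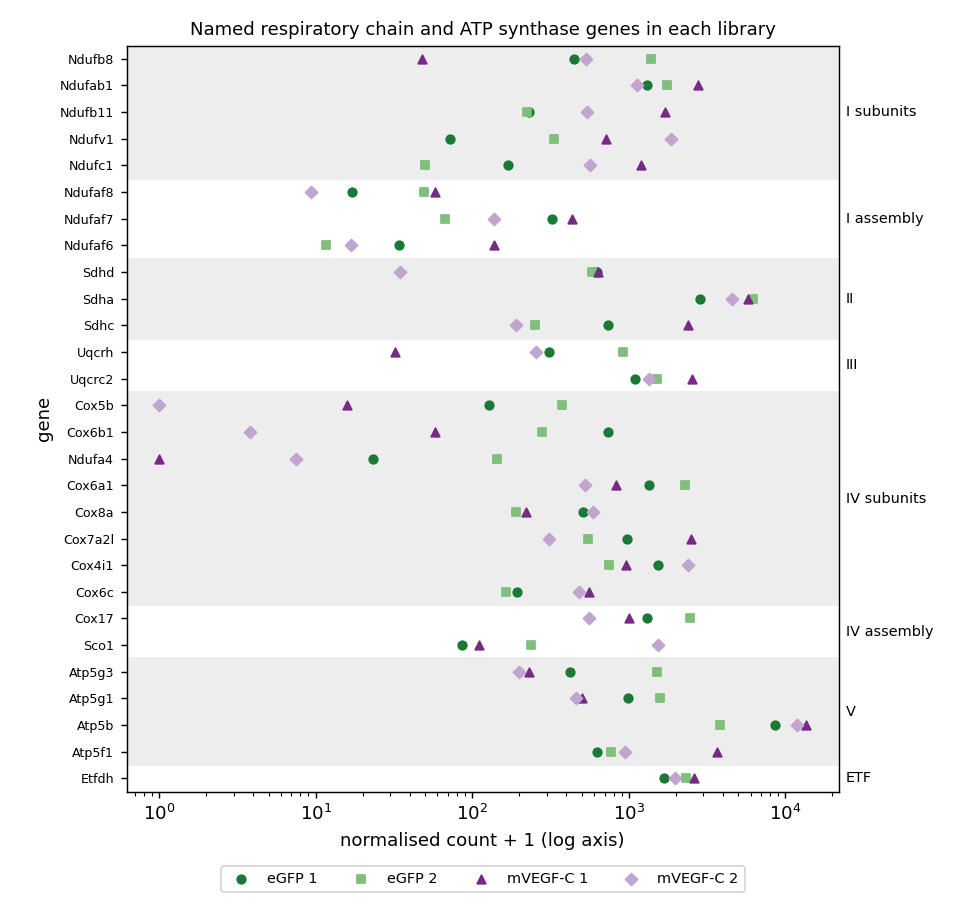
Normalised count plus 1 (log axis) of 28 of the genes (26 chosen by the naming rule and 2 added) in the 4 libraries, 1 point per library, with genes grouped by complex (ETF, electron transfer flavoprotein) and ordered within a complex by log2 fold change. Cox5b, Cox6b1 and Ndufa4 have both mVEGF-C points left of both eGFP points, and Cox5b and Ndufa4 each have 1 mVEGF-C library at 0, while for Sdha, Etfdh and Cox4i1, among others, the 2 groups interleave.

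Complex IV takes electrons from cytochrome c and reduces oxygen. Values below are normalised counts, given in the order eGFP 1, eGFP 2, mVEGF-C 1 and mVEGF-C 2. Cox5b (chromosome 1, 36691449 to 36693681), a nuclear subunit on the matrix side of the enzyme, had 126, 371, 14.96 and 0. The recovered reads behind these were 141, 347, 14 and 0. Both mVEGF-C libraries were thus below both eGFP libraries, with group means of 249 ± 173 in eGFP and 7.48 ± 10.6 in mVEGF-C (mean ± SD, n = 2 each). The log2 fold change, mVEGF-C minus eGFP on the log2(count + 1) scale, was -5.77 ± 1.31 (SE; limma, adjusted p = 0.00197). Because 1 library was at 0, its size depends on the pseudocount and was -4.47 with a pseudocount of 5.

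Cox6b1 (chromosome 7, 30616861 to 30626151), a subunit on the intermembrane side, had 737, 278, 56.6 and 2.79, from 823, 260, 53 and 3 reads. Again the groups did not overlap, and the mVEGF-C pair itself differed by 20.3-fold. Means were 507 ± 325 in eGFP and 29.7 ± 38.1 in mVEGF-C (SD, n = 2 each), and the log2 fold change was -4.94 ± 1.30 (SE; limma, adjusted p = 0.0124).

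Ndufa4 (chromosome 6, 11900292 to 11907497), named for complex I but known as a subunit of complex IV, had 22.4, 142, 0 and 6.503, from 25, 133, 0 and 7 reads. This is the lowest level per length of the 39 nuclear subunits measured, 93.0 normalised counts per kb. On the log2 scale the groups differed by -4.40 ± 1.31 (SE; limma, adjusted p = 0.0401). With a pseudocount of 5 it was -3.07 and not called (limma, adjusted p = 0.0721).

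The 3 calls rest on few libraries. Without eGFP 1 or eGFP 2 their adjusted p-values in limma lay between 0.126 and 0.999; leaving out mVEGF-C 2 gave 0.131 for Cox5b and 0.265 for Cox6b1, and leaving out mVEGF-C 1 gave 0.395 for Ndufa4. The opposite omissions kept the calls, at 4.38e-05 for Cox5b and 0.00048 for Cox6b1 without mVEGF-C 1, and at 0.00396 for Ndufa4 without mVEGF-C 2 (limma, adjusted p). Over the 4 omissions the log2 fold change lay between -7.77 and -3.77 for Cox5b, between -6.90 and -2.98 for Cox6b1 and between -5.85 and -2.95 for Ndufa4. On the recovered reads, edgeR called Cox5b alone (0.872% of all genes lower and 0.739% higher), whereas DESeq2 called all 3 and also Ndufc1 as higher (3.51% of all genes lower and 3.12% higher).

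The promoters of these 3 genes are shown because GABPA and other ETS factors, and NRF1, are known regulators of many cytochrome oxidase subunit genes. The sequences are RefSeq promoters on GRCm38.p6, 250 bases before to 50 after the annotated start, 5′ to 3′ on the gene's strand. Capitals mark the ETS motif CGGAAG or its reverse complement CTTCCG. Shorter or other forms of ETS site were not searched.
Cox5b promoter (chr1:36691237-36691536, plus strand): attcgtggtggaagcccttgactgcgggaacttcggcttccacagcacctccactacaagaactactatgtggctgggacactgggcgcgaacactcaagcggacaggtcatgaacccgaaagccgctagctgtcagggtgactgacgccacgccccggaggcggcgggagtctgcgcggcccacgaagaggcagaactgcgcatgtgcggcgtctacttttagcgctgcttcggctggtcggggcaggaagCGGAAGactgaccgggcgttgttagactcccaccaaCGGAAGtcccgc
Cox6b1 promoter (chr7:30626065-30626364, minus strand): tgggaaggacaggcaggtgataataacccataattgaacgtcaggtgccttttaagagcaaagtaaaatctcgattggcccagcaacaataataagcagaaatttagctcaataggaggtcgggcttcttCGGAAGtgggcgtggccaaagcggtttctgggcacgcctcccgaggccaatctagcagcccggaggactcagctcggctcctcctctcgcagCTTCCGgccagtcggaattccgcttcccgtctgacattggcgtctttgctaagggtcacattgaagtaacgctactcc
Ndufa4 promoter (chr6:11907401-11907700, minus strand): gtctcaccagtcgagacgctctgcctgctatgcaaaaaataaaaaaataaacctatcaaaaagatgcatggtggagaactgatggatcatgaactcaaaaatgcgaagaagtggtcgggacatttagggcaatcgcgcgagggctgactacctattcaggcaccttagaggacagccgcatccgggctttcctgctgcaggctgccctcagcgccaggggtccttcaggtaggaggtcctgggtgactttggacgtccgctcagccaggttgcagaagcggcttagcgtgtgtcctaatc
Cox5b held 2 matches to this ETS motif, Cox6b1 held 2 and Ndufa4 0. None of the 3 windows held an exact match to the NRF1 consensus, and inexact matches were not counted. Of the 38 members with a RefSeq promoter in the set used, 17 (44.7%) held an ETS motif and 7 (18.4%) an NRF1 motif, searched on both strands. Among all 27025 genes of that set the shares were 18.8% and 5.19%. That set is not limited to the genes measured here, and the share among measured genes was not taken. An ETS motif and an NRF1 motif can overlap at their ends, and each was counted by itself. The promoters with an ETS motif include those of genes that were not called, such as Cox6a1, Cox8a, Surf1 and Ndufs3, and a match describes letters only.

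The other 7 subunits of complex IV went both ways and none was called. Cox6a1, the widely expressed form of a subunit whose muscle form is Cox6a2, had 1341, 2282, 827 and 522, with both mVEGF-C libraries lower. Its log2 fold change was -1.41 (95% interval -3.48 to 0.66; limma, adjusted p = 0.694). Cox6c, with 193, 162, 553 and 481, stood the other way at 1.54 (interval -0.86 to 3.94), and its replicates were close to each other in both groups. Cox7c had 544, 2916, 152 and 1778, so that each group held 1 high and 1 low library. Cox4i1, the general form of the largest nuclear subunit, had 1531, 747, 956 and 2373 (log2 fold change 0.49), and Cox8a had 510, 190, 221 and 587 (0.21). Cox7b had 596, 261, 2092 and 321, high in mVEGF-C 1 alone. Cox7a2l, known as a factor that joins complexes III and IV into supercomplexes, had the same shape, with 971, 548, 2508 and 307 (0.27). Over all 10 subunits, the 3 called ones included, the median log2 fold change was -0.53, and 5 of the 7 not called were above 0. The paralogs Cox4i2, Cox6a2, Cox6b2, Cox7a1, Cox7a2, Cox8b and Ndufa4l2 were not analysed here.

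Factors that build complex IV showed no call among 7. Cox17, the copper chaperone of the intermembrane space, had 1309, 2463, 997 and 557, the 1 gene of the class whose groups did not overlap (log2 fold change -1.27, interval -3.31 to 0.78, limma, adjusted p = 0.737). Sco1, which passes copper on to the enzyme, had 85.1, 235, 110 and 1530, so its log2 fold change of 1.53 came from mVEGF-C 2 and was -0.36 without that library. Cox15, an enzyme of haem A synthesis, had 299, 480, 1051 and 418. Surf1, whose loss causes Leigh syndrome in humans, had 686, 391, 142 and 843. Cox16, Cox18 and Cox19 had 785, 500 and 102 in eGFP 1, 2012, 682 and 34.2 in eGFP 2, 517, 127 and 22.4 in mVEGF-C 1, and 1794, 565 and 264 in mVEGF-C 2. In 5 of the 7 genes mVEGF-C 2 exceeded mVEGF-C 1, and the median difference within the mVEGF-C pair was 2.14 on the log2 scale.

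**Figure D2:**
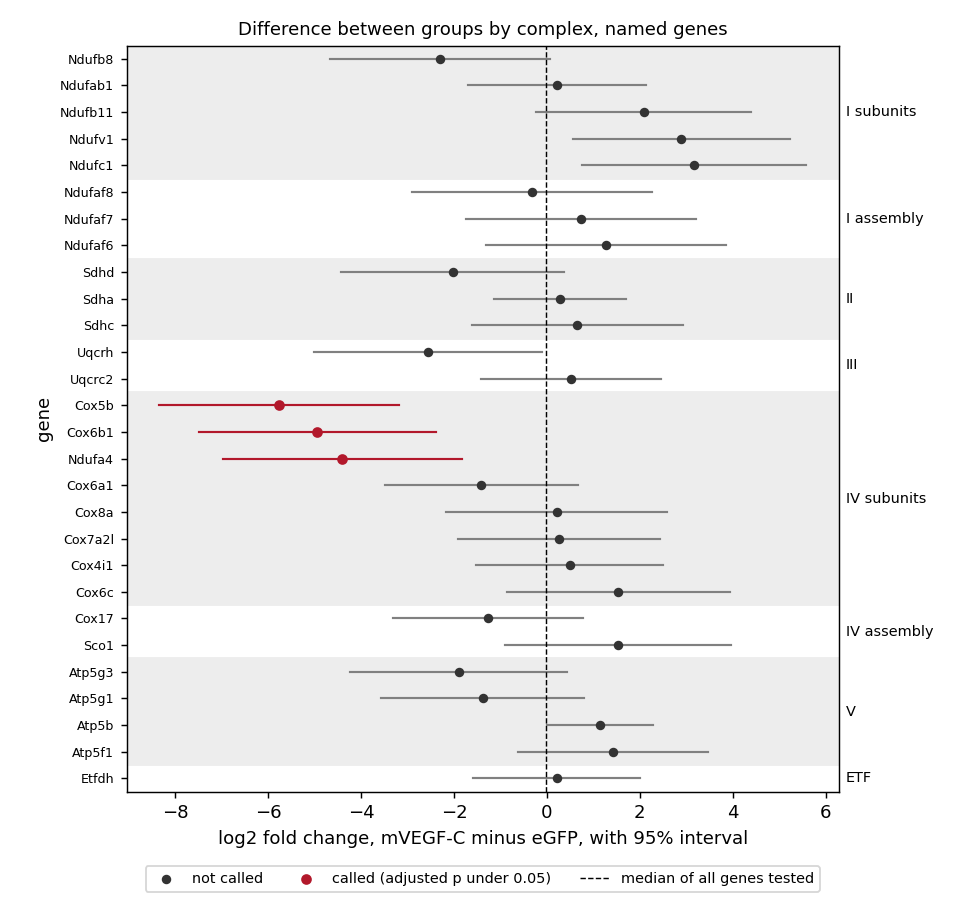
Log2 fold change (mVEGF-C minus eGFP) of the same 28 genes, each with its 95% interval from limma, in the same order, with called genes in red and the median of all genes tested as a dashed line at -0.02. The 3 called genes are all in complex IV, at -5.77, -4.94 and -4.40, and complexes I, II, III and V each have genes on both sides of the line.

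Complex I, which oxidises NADH, gave the highest fold changes of the 51 genes, none of them called by limma. Ndufc1 (chromosome 3, 51404677 to 51408988), a small subunit of the membrane arm, had 167, 49.2, 1195 and 568, so its groups were well apart. Means were 108 ± 83.6 in eGFP and 882 ± 444 in mVEGF-C (SD, n = 2 each), and the log2 fold change was 3.17 ± 1.23 (SE; limma, adjusted p = 0.186). Ndufv1, the flavoprotein that accepts electrons from NADH, had 70.7, 334, 709 and 1857 (2.89, interval 0.55 to 5.23, limma, adjusted p = 0.230). Ndufb11, of the membrane arm, had 228, 222, 1691 and 541 (2.08). Ndufv1 and Ndufb11 were singled out after their values were seen. In all 3 the groups were apart, and Ndufs3 was the 1 further complex I subunit higher in both mVEGF-C libraries, with 439, 405, 532 and 1043.

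Of the 12 complex I subunits, 8 had fold changes above 0 and 4 below. Ndufb8, of the membrane arm, had the lowest, with 445, 1390, 47.0 and 535 (log2 fold change -2.30, interval -4.67 to 0.07, limma, adjusted p = 0.452). Here mVEGF-C 1 alone was far below the rest, and without it the value was -0.55. Ndufb2, with 582, 1838, 429 and 280, was lower in both mVEGF-C libraries. Ndufb6, with 41.2, 246, 12.8 and 125, repeated the shape of Ndufb8. Ndufs7 and Ndufs8, core subunits near the ubiquinone site, had 576 and 186 in eGFP 1 and 261 and 377 in eGFP 2. They had 327 and 515 in mVEGF-C 1 and 1134 and 182 in mVEGF-C 2, with log2 fold changes of 0.65 and 0.21. Ndufab1, the mitochondrial acyl carrier protein, had 1298, 1741, 2751 and 1120 (0.22). It stood at 1756 normalised counts per kb by the median transcript length and 497 by the longest. Ndufb9 had 85.1, 423, 684 and 296 (1.24). The 12 subunits had a median log2 fold change of 0.44 and a range of -2.30 to 3.17, so the class did not move together.

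The complex I assembly factors had the lowest counts of any class, with a median gene mean of 40.7. Ndufaf2, a chaperone of late assembly, had 20.6, 19.2, 16.0 and 25.1, near the same in all libraries. Ndufaf7, a methyltransferase of the matrix, had 323, 66.3, 434 and 138 (log2 fold change 0.73). Ndufaf6 had 33.1, 10.7, 137 and 15.8 (1.27), and Ndufaf8 had 16.1, 48.1, 56.6 and 8.36 (-0.32). In each of these last 3, leaving out single libraries changed the sign, and none of the 4 was called.

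In complex II, succinate dehydrogenase, the catalytic subunit and the membrane anchors differed in how far replicates agreed. Sdha, the flavoprotein, had 2858, 6178, 5757 and 4581, so that the groups overlapped (log2 fold change 0.29, interval -1.13 to 1.71, limma, adjusted p = 0.951). Sdhc had 737, 249, 2403 and 190 and Sdhd had 625, 577, 633 and 33.4. For both anchors mVEGF-C 2 was the lowest library, 12.6-fold and 18.9-fold below mVEGF-C 1. Their log2 fold changes of 0.66 and -2.02 changed sign with single libraries left out, to -1.17 for Sdhc without mVEGF-C 1 and 0.08 for Sdhd without mVEGF-C 2.

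Complex III passes electrons from ubiquinol to cytochrome c. Uqcrh, its acidic hinge subunit, had 308, 917, 31.0 and 254, lower in both mVEGF-C libraries (log2 fold change -2.56, interval -5.01 to -0.11, limma, adjusted p = 0.383). Uqcrc2, a core protein, had 1093, 1509, 2517 and 1339 (0.51, interval -1.42 to 2.45). Uqcrfs1, the Rieske iron-sulphur protein, had 141, 115, 157 and 164 and lay slightly higher in both mVEGF-C libraries (log2 fold change 0.33). Cyc1, the cytochrome of the complex, had 382, 207, 341 and 117, and Uqcrq had 404, 416, 501 and 67.8. No member of complex III was called, and the median log2 fold change was -0.49.

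ATP synthase was the most abundant class, and its highest member per length was the catalytic beta subunit. Atp5b (chromosome 10, 128083273 to 128090391) had 8585, 3820, 13586 and 11789 normalised counts, at 4930 per kb, the highest of the 51 genes with either measure of transcript length. Each mVEGF-C library exceeded each eGFP library, with means of 12688 ± 1271 and 6203 ± 3369 (SD, n = 2 each). The log2 fold change was 1.14 (interval 0.0045 to 2.28; limma, adjusted p = 0.422, not called). Atp5a1, the alpha subunit that pairs with it, had 2382, 1024, 642 and 9116, so that the mVEGF-C libraries held both its highest and its lowest value, 14.2-fold apart. Atp5d, of the central stalk, had 844, 569, 1318 and 1338, higher in both mVEGF-C libraries.

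Subunits of the membrane ring and the peripheral stalk differed among themselves. Atp5g1 and Atp5g3, 2 of the 3 genes for the same mature ring protein, were both lower in both mVEGF-C libraries. Atp5g1 had 988, 1592, 504 and 459 (log2 fold change -1.38, interval -3.56 to 0.80, limma, adjusted p = 0.733) and Atp5g3 had 418, 1504, 229 and 197 (-1.90, interval -4.24 to 0.44, limma, adjusted p = 0.592). Reads from their similar coding parts can be split between them, and Atp5g2 was not analysed here. In the stalk, Atp5f1 had 623, 773, 3686 and 944 (1.43), higher in both mVEGF-C libraries but only just in mVEGF-C 2. Atp5h had 1269, 957, 3003 and 1113, Atp5j had 1235, 335, 279 and 1898, and Atp5o, which links the stalk to the catalytic head, had 533, 2662, 567 and 464. No ATP synthase gene was called, the median log2 fold change was 0.63, and the groups were apart for 3 genes upward and 2 downward.

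Etfdh, which feeds electrons from fatty acid and amino acid oxidation to ubiquinone, had 1687, 2306, 2627 and 1975. The groups overlapped, and its log2 fold change was 0.21 (interval -1.59 to 2.00; limma, adjusted p = 0.973). Its replicates were among the closer ones, 0.45 and 0.41 apart on the log2 scale.

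Summed over the 51 genes, the share of all counts was 0.167% in eGFP 1, 0.174% in eGFP 2, 0.208% in mVEGF-C 1 and 0.212% in mVEGF-C 2. The groups were thus apart, at 0.171% ± 0.00471 and 0.210% ± 0.00302 (SD, n = 2 each), and no test is given because the genes were chosen together. Without Atp5b and Atp5a1, left out after their values were seen, the sums were 30448, 42825, 45106 and 35456 normalised counts, which overlap between groups. By class, the sum for ATP synthase was higher in both mVEGF-C libraries, with 0.0682%, 0.0483%, 0.0833% and 0.103%. Atp5b and Atp5a1 are part of that class sum, which was not taken again without them. Of its 9 genes, 6 had fold changes above 0 and 3 below, and none was called. The sum for complex I subunits was higher by less, at 0.0225%, 0.0278%, 0.0335% and 0.0293%. For complex IV subunits the sum was lower, at 0.0266%, 0.0289%, 0.0258% and 0.0240%, with eGFP 1 and mVEGF-C 1 close. Of these 10 subunits 5 had fold changes above 0 and 5 below. The 3 called ones are among the latter, and the sum was not taken again without them.

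**Figure D3:**
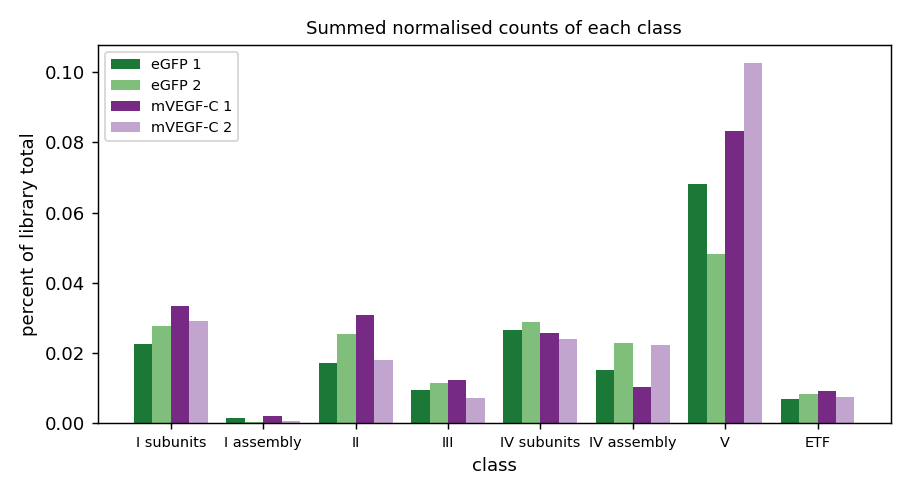
Summed normalised counts of each class (ETF, electron transfer flavoprotein) as a percent of the library total, 1 bar per library. ATP synthase has the tallest bars, from 0.0483% in eGFP 2 to 0.103% in mVEGF-C 2, and complexes II and III and the complex IV assembly factors have overlapping groups.

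Differences within pairs are between 2 single libraries, and group differences are between means of 2. Means vary less than single libraries, so the sizes of these differences are not like measures. Over the 51 genes the median absolute difference on the log2 scale was 1.17 for the eGFP pair, 1.64 for the mVEGF-C pair and 1.12 for the group means, beside 0.94, 1.07 and 0.79 over all genes tested. More than 4-fold differences within the mVEGF-C pair were seen for 21 of the 51 genes (41.2%, against 24.6% of all genes) and within the eGFP pair for 8 (15.7%, against 14.5%). Over all genes tested, the largest difference was 4.44 within the mVEGF-C pair and 3.08 within the eGFP pair. Rows thus appear to have been held to a narrower limit in eGFP, so the 2 pairs cannot be set against each other. The group difference was larger than both replicate differences for 13 of the 51 genes (25.5%), against 26.1% of all genes. The highest of the 4 values was in mVEGF-C 1 for 20 genes, in eGFP 2 for 15, in mVEGF-C 2 for 13 and in eGFP 1 for 3. With each library left out in turn, 26 of the 51 fold changes kept their sign throughout, 13 above 0 and 13 below.

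**Figure D4:**
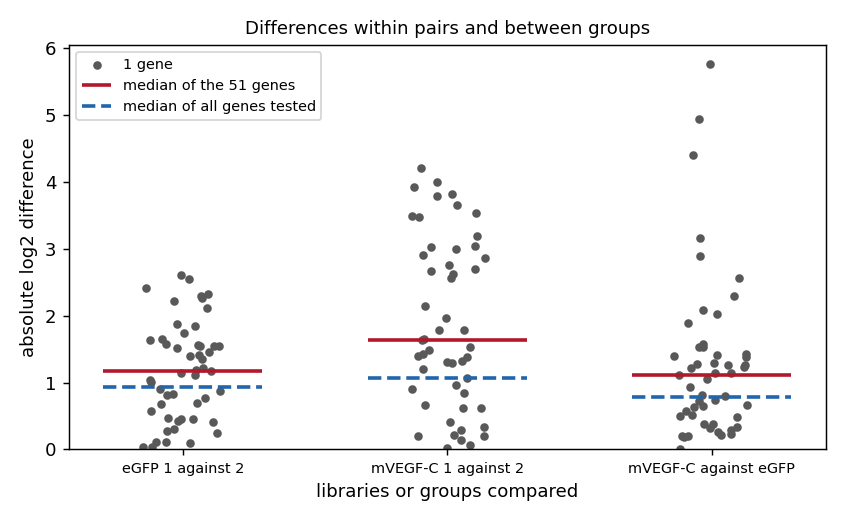
Absolute log2 difference of each of the 51 genes (grey points) for the eGFP replicates, for the mVEGF-C replicates and for the group means, with the median of the 51 genes in red and of all genes tested in blue. The red lines lie at 1.17, 1.64 and 1.12 and each is above the blue line, and the points within the mVEGF-C pair reach 4.20.

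The partner subunits encoded in the mitochondrial genome were steadier and more abundant. All 13 had a row and none was called, with fold changes of -0.73 to 0.38 on the log2 scale. COX1, the catalytic subunit of complex IV, had 304208, 250155, 327461 and 323922 normalised counts. Its log2 fold change was 0.24 (interval 0.07 to 0.41, limma, adjusted p = 0.155). Per kb of transcript, the 13 had a median of 21444 normalised counts (838 for ND3 to 195105 for COX1), and the 39 nuclear subunits of complexes I to V a median of 739 (93.0 for Ndufa4 to 4930 for Atp5b). Within pairs the 13 differed by a median of 0.28 in eGFP and 0.22 in mVEGF-C on the log2 scale, against 1.17 and 1.49 for the nuclear subunits. The genome of origin and the level of the transcripts cannot be told apart here.

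**Figure D5:**
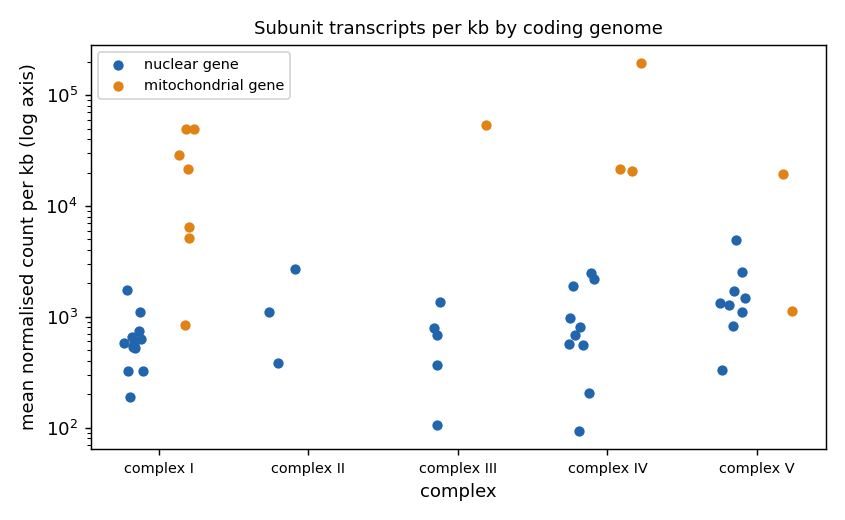
Mean normalised count per kb over the 4 libraries (log axis) for subunits encoded in the nucleus (blue) and in the mitochondrial genome (orange), by complex, 1 point per gene. Mitochondrially encoded subunits lie above the nuclear ones of their complex except ND3, at 838, and ATP8, at 1133, and complex II has nuclear subunits alone.

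Other genes of oxidative phosphorylation had no called member. Of 35 assembly factors outside the naming rule 14 had a row, 6 with fold changes above 0 and 8 below (median -0.01). Coa5, an assembly factor of complex IV, had 3358, 3497, 1407 and 486, apart between the groups (log2 fold change -2.05, limma, adjusted p = 0.349). Of 6 carriers and channels all had a row and 4 were above 0 (median 0.66). The outer membrane channels Vdac2, with 715, 729, 6074 and 4100, and Vdac3, with 604, 1209, 4112 and 3714, were higher in both mVEGF-C libraries, at 2.79 and 2.19 (limma, adjusted p = 0.0933 and 0.274). The ATP/ADP carriers Slc25a4 and Slc25a5 stood at -0.20 and -0.28. Of 13 genes for ubiquinone synthesis 4 had a row, 2 on each side (median -0.09).

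Of 13 regulators of respiratory genes 8 had a row, 5 above 0 and 3 below (median 0.32). Pprc1, a coactivator related to PGC-1 alpha, had 577, 4312, 308 and 49.2, lower in both mVEGF-C libraries (log2 fold change -3.66, limma, adjusted p = 0.0724). Nrf1 had 820, 235, 922 and 1735 (1.52) and the ETS factor Gabpa had 3678, 3998, 7070 and 4556 (0.57). Gabpb1, its partner, had 931, 880, 2176 and 2214 (1.28), apart between groups and not called (limma, adjusted p = 0.721). Tfam, which packages mitochondrial DNA, had 328, 1174, 299 and 103 (-1.81).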

How the data were processed

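The deposited file lists 9114 genes in 4 libraries. The authors gave a signal per gene, namely reads divided by a library size factor (normalised counts). Per the submitters' processing notes, FastQC, Trimmomatic, Salmon and DESeq2 were used with the mm10 build, and no versions are given. RNA from few cells was purified with a PicoPure kit and then linearly amplified, per the labels' protocols, which can add spread between libraries for scarce transcripts. No source used here names the counting annotation or strand setting. Every value was a whole multiple of its library's smallest value above 0 (100% within 0.001), so whole numbers were recovered, called recovered reads here. Whether they are tallies of reads or rounded estimates from Salmon is not stated.

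The 51 members and the other lists were chosen with earlier results of these data known. Differences were fitted with limma 3.58.1 in R 4.3.3 (eBayes with trend) on log2(normalised count + 1), two-sided, for 9063 genes with a mean of at least 10, adjusted over all of them by Benjamini-Hochberg and called under 0.05. The prior degrees of freedom were infinite, so each gene's variance came from the trend. edgeR 4.0.16 and DESeq2 1.42.0 were run on recovered reads. Scripts were tested on simulated data. Every called member, the most abundant, highest and lowest of each class, members at 0 and paralogs were chosen by rule (26 genes, with 2 added after seeing values) for the gene plots and the alternatives; other members are given with their values to account for them. Lengths are the median coding-transcript length in GENCODE vM21 (GRCm38, as mm10), 0.46 to 4.80 kb; with the longest transcript, 7 of the 10 highest genes per kb stayed in the first 10. Coordinates are 1-based. Values of 1 member are not reported here; it remains in the counts and medians.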

Additional observations from a re-analysis of the deposited data

How the results depend on the processing

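Among all 9063 genes tested, 75 were called higher and 119 lower. A minimum mean of 100 gave 45 and 75, eBayes without trend 15 and 26, edgeR 67 and 79, and DESeq2 283 and 318. With single libraries left out the counts ran from 5 to 104 higher and from 0 to 188 lower. Of the respiratory genes, 0 were called higher and 3 lower. DESeq2 called 1 higher, edgeR called 1 lower, eBayes without trend called 0 lower, and single libraries left out gave 0 to 2 lower. The median log2 fold change of 0.21 became -0.024 to 0.077 with single libraries left out. The summed share differed by 0.0389 percentage points and by 0.0531 without mitochondrially encoded transcripts in the total; TMM scaling cannot change a share and gave no value. With the replicate number as a block (replicate block), 74 and 129 genes were called, with the same count of 0 and 3 respiratory genes; same-numbered libraries did not deviate together (r = 0.00013 across 9063 genes), so the numbers do not pair the libraries. Of all 51 members 26 kept their sign whichever library was left out. Among the 28 genes run under every alternative 12 changed sign without a library, none of them called. Their ranges were -0.16 to 1.15 for Cox4i1, -1.25 to 1.78 for Cox7a2l, -0.50 to 0.92 for Cox8a, -0.018 to 0.43 for Etfdh, -0.42 to 0.87 for Ndufab1, -0.25 to 2.79 for Ndufaf6, -0.40 to 1.87 for Ndufaf7, -1.63 to 0.99 for Ndufaf8, -0.36 to 3.42 for Sco1, -0.27 to 0.85 for Sdha, -1.17 to 2.48 for Sdhc and -4.13 to 0.077 for Sdhd. Ndufaf8 also changed sign in edgeR (0.026) and DESeq2 (0.015). The cause of these changes was not tested. Of the 51 genes, 4 had a mean under 100 normalised counts.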
